A study of Mus musculus with 15 samples.

Results

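A set of 100 liver transcripts was read whose ratio to a reference RNA was higher in adult mice after either of 2 arsenic exposures. The ratio, rather than the liver signal alone, defines the set, and the liver signal was not higher for every member. The members were chosen by their measured values on 9 adult arrays, as the 100 of 42006 array features with the largest gap between the lowest of the 6 exposed arrays and the highest of the 3 control arrays. Each value was a log2 ratio of liver RNA over a common reference RNA, so that 1 unit stands for a 2-fold difference. Liver RNA was measured in 15 mice, 3 in each of 5 groups, and the mice of a group came from separate litters. The control mice at 10 weeks of age (PND70 control) and at birth (PND1 control) came from dams on arsenic-free tap water. The PND70 prenatal arsenic and PND1 prenatal arsenic mice came from dams given sodium arsenite at 85 mg/L, which is 49 ppm arsenic, in their water between gestational day 8 and birth, and drank none themselves. The PND70 postweaning arsenic mice were born to unexposed dams and drank the arsenic water from PND21 until 10 weeks. All groups share 1 genetic background, which the labels name as C57/BL6J and the methods as ApoE-/- mice on that background. The sex of the mice is not given. The reference was a pool of RNA from mouse cell lines, labelled with Cy5 on every array, while the liver RNA carried Cy3.

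Arsenite binds the thiol groups of proteins and provokes oxidative and heat shock responses, and the liver is the main organ that methylates it. The liver is still a blood-forming organ at birth and takes on its adult metabolic functions over the following weeks, so that many of its transcripts change between birth and adulthood. ApoE carries lipoprotein remnants to hepatic receptors, and mice without it develop hypercholesterolemia and atherosclerosis. In total liver RNA, fewer cells of a type and less RNA per cell cannot be told apart.

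The files give each 60-base probe an identifier and a sequence with no gene name, and the reference tables used here do not pair these identifiers with genes. The 100 members are therefore named by probe, their functions were not analysed, and liver and other cell type markers could not be read. The sequences below belong to the members on which the results turn. The first 5 had some of the largest gaps.
Z00071536-1: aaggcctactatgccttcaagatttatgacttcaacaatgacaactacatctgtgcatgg
Z00025396-1: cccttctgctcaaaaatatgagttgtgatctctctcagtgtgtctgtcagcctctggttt
Z00060187-1: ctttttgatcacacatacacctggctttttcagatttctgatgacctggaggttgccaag
Z00054409-1: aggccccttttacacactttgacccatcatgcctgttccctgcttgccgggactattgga
Z00011620-1: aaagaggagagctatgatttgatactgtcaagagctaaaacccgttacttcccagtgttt

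The next 2 probes differed most between the exposures. The 2 after them differed most clearly within each direction between newborn groups, lower and then higher after exposure. Z00035712-1 differed less clearly there than Z00011620-1, which is printed above.
Z00057225-1: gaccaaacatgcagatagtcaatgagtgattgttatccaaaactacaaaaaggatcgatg
Z00032452-1: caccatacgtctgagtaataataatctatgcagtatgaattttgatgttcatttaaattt
Z00017884-1: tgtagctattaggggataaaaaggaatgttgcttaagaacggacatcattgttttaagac
Z00035712-1: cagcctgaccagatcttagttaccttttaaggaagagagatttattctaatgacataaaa

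The following 3 probes had nearly the same profile over all arrays, and capitals mark the 16 bases shared by Z00060641-1 and Z00067946-1.
Z00048288-1: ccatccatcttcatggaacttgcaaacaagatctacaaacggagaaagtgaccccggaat
Z00060641-1: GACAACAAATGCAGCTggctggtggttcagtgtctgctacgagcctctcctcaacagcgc
Z00067946-1: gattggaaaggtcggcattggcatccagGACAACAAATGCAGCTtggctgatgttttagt

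The last probes were low in adult liver against the reference. Capitals in Z00057285-1 mark 26 bases shared with the probe Z00060486-1, and capitals in Z00018624-1 mark 49 bases shared with the probe Z00060592-1. Neither partner is a member.
Z00012228-1: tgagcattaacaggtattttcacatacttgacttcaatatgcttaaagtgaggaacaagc
Z00058065-1: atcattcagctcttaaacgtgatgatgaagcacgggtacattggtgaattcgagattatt
Z00057285-1: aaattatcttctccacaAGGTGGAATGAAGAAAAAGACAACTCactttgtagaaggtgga
Z00018624-1: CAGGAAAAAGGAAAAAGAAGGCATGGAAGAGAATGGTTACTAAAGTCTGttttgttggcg

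The partners were measured by spots of their own on the same arrays. Z00060592-1 stood at rank 496 by the gap (0.11), with differences from adult controls of 0.31 after prenatal and 0.38 after postweaning arsenic, beside 0.30 and 0.35 for Z00018624-1. Z00060486-1 stood at rank 132 (0.19), with 0.30 and 0.38 beside 0.33 and 0.44 for Z00057285-1. Over the 15 arrays the pairs correlated at r = 0.991 and 0.998, as descriptions. The members' probes had a median GC content of 40.0%, against 43.3% over all probes. The hexamer AATAAA, the commonest polyadenylation signal, lay in 13 members' probes, as printed 5′ to 3′ on that strand only, against 6.75% of all probes. None of the 100 probes had more than 1 spot.

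In the liver channel, at least 99.995% of the spots on every array were well above background, and the software marked 8 to 35 spots per adult array and 94 to 172 per newborn array as outliers. All 100 members were well above background in Cy3 on every array, 93 were so in Cy5, and none was saturated. Members were bright, with a median log2 Cy3 signal of 12.41 in adult control liver against 9.91 over all probes. The adult arrays were read out on 1 day and the newborn arrays on the next, so that readout day and age cannot be told apart. With 3 mice in a group, the number of arrays limits how precise a difference can be.

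The gap was above 0 for 2308 probes, 5.49% of all. The opposite order, with the 3 controls above all 6 exposed arrays, held for 984 probes (2.34%). The members' gaps ran from 0.20 to 0.69 with a median of 0.23. At the edge of the choice the gap hardly changed, from 0.2045 for Z00021903-1 (rank 99) and 0.2041 for Z00060751-1 (rank 100) inside to 0.2038 for Z00034785-1 and 0.2036 for Z00056408-1 outside. Because these values chose the members, they are given as a description with no test.

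**Figure D1:**
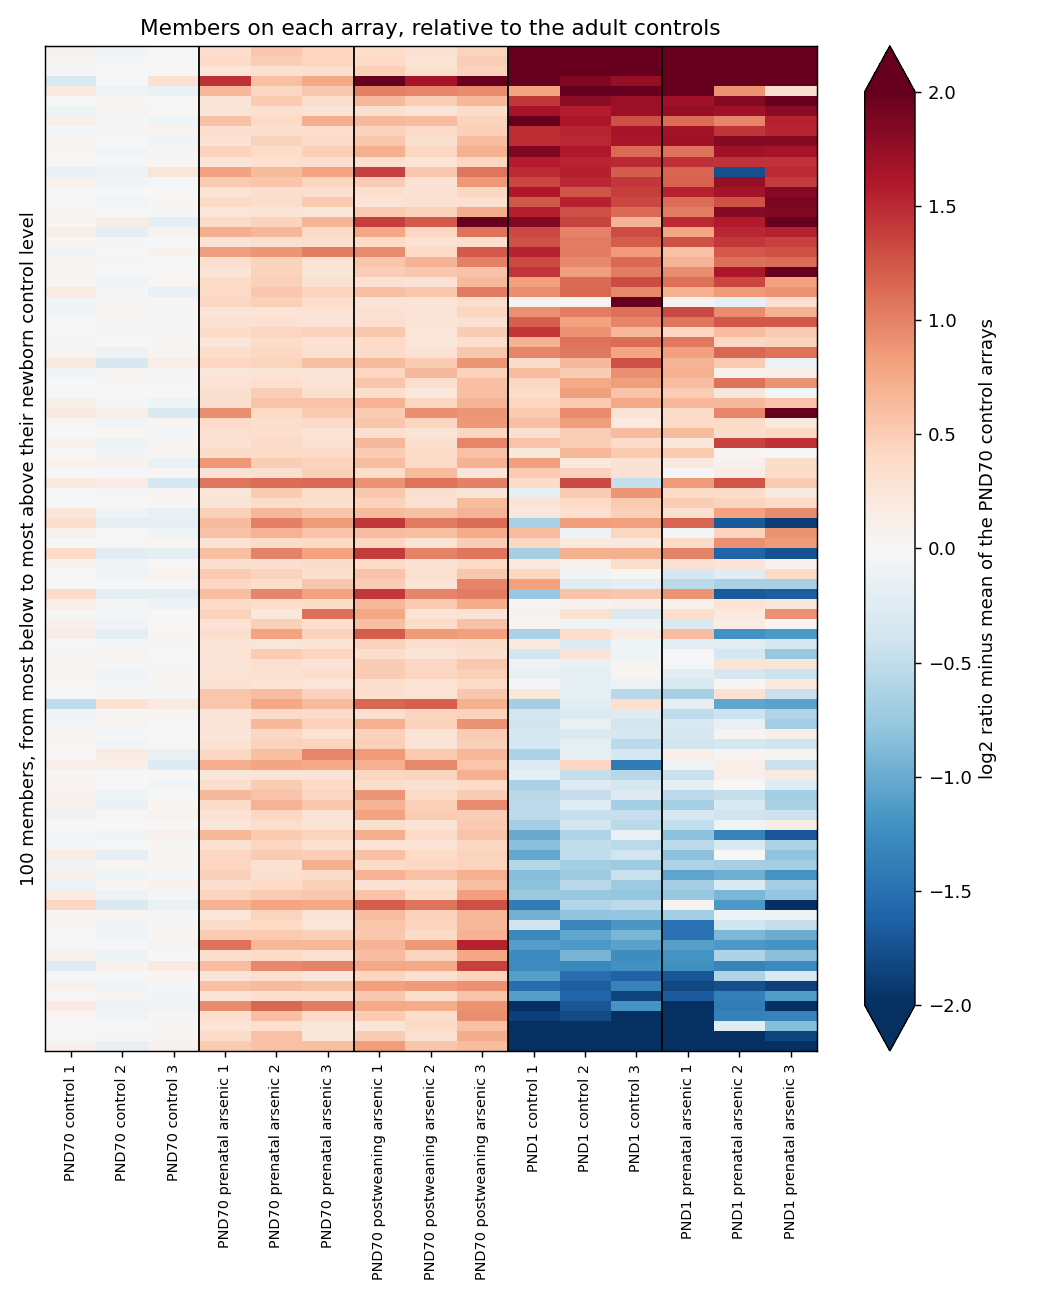
The colour gives the log2 ratio of liver over reference RNA minus the mean of the PND70 control arrays for 100 members (rows) on 15 arrays (columns), with colours ending at -2 and 2. The exposed adult columns lie above the controls by the choice of members, while the newborn columns run from far above to far below the adult controls in both newborn groups.

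Adult differences were mostly modest. The members were higher than the controls by a median of 0.41 after prenatal exposure (0.25 to 1.11, a 1.19- to 2.15-fold difference) and by a median of 0.53 after postweaning exposure (0.30 to 2.22, 1.23- to 4.66-fold). A difference of at least 1 was reached by 2 members after prenatal and by 9 after postweaning exposure.

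The largest gap belonged to Z00051485-1, a transcript far below the reference. Its log2 ratios were -4.10, -4.15 and -4.65 in the adult controls, -3.24, -3.18 and -3.16 after prenatal exposure and -3.41, -3.21 and -3.29 after postweaning exposure. The 6 exposed values lay closer together than the 3 controls. Z00031126-1 was also far below the reference, with controls at -3.09, -3.08 and -3.48, prenatal values at -2.48, -2.42 and -2.46, and postweaning values at -2.50, -2.26 and -2.67.

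Z00071536-1 and Z00025396-1 were moderately above the reference in adults and close to it at birth. Z00071536-1 read 1.20, 1.23 and 1.29 in adult controls, 2.32, 1.91 and 1.90 after prenatal exposure and 1.92, 2.10 and 2.78 after postweaning exposure. In newborns all 6 arrays lay between 0.04 and 0.17. Z00025396-1 read 1.16, 1.49 and 1.59 in adult controls, 2.03, 2.38 and 2.41 after prenatal exposure and 2.18, 2.16 and 2.77 after postweaning exposure, with newborn arrays between 0.07 and 0.20. The third postweaning array was the highest of the 6 exposed arrays for both.

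Z00060187-1 and Z00054409-1 were abundant against the reference in adult liver. Z00060187-1 read 3.80, 3.55 and 3.58 in adult controls, 4.58, 4.79 and 4.68 after prenatal exposure and 4.39, 4.38 and 4.53 after postweaning exposure. It was 1 of 3 members whose postweaning arrays all lay below the prenatal ones. Z00054409-1 read 3.63, 3.39 and 3.64 in controls, 4.07, 4.14 and 4.15 after prenatal exposure and 4.38, 4.12 and 4.17 after postweaning exposure.

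Z00011620-1 was at the level of the reference in controls, with -0.02, -0.16 and -0.15. It read 0.47, 0.53 and 0.47 after prenatal exposure and 0.70, 0.75 and 0.81 after postweaning exposure. Its 3 adult groups did not overlap, and the SD within each was at most 0.08.

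The other members among the 20 largest gaps were higher by 0.37 to 0.94 after prenatal exposure and by 0.49 to 2.22 after postweaning exposure. They were Z00034507-1, Z00052952-1, Z00024877-1, Z00044310-1, Z00035602-1, Z00013009-1, Z00031421-1, Z00036428-1, Z00023257-1, Z00054507-1, Z00057225-1, Z00048288-1 and Z00049274-1. Their adult control means ran from -1.80 for Z00035602-1 to 4.16 for Z00036428-1, so that large gaps occurred both above and below the reference.

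**Figure D2:**
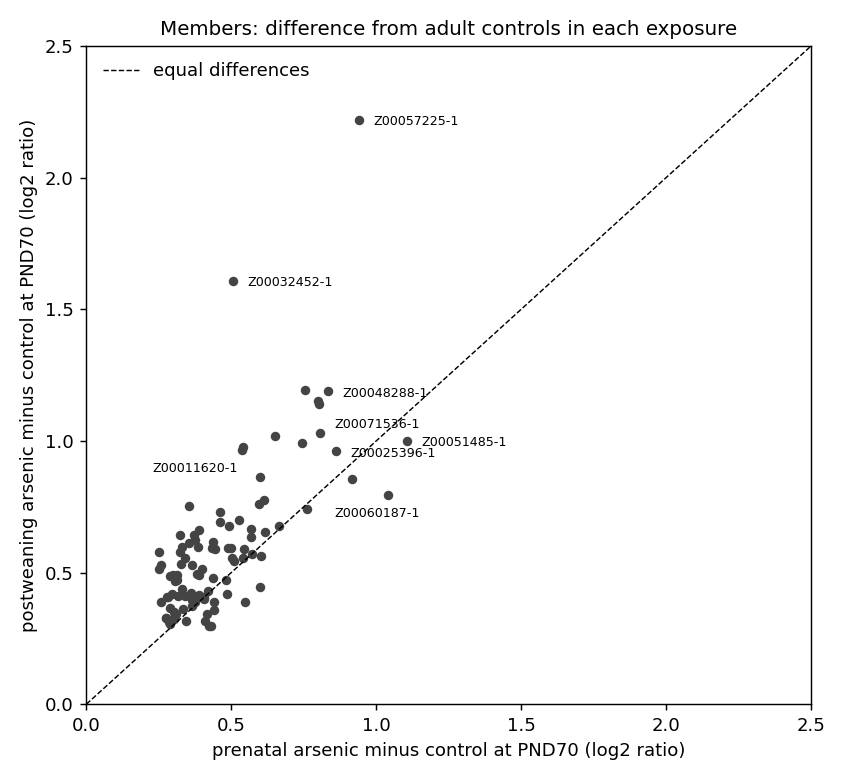
Each point is a member, with its difference from the PND70 controls after prenatal arsenic (x axis) and after postweaning arsenic (y axis) in log2 ratio; the dashed line marks equal differences. Z00057225-1 (0.94 and 2.22) and Z00032452-1 (0.50 and 1.61) lie far above the line, and 82 of 100 points lie above it.

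The ratio combines 2 channels, and the reference RNA was meant to be the same on every array. In the processed signals of adult arrays, Cy3 was higher than in controls for 95 members after prenatal and for 94 after postweaning exposure, by medians of 0.33 and 0.52, against 41.8% and 42.4% of all probes that were higher. All 6 exposed Cy3 values lay above all 3 controls for 71 members (3.48% of all probes), or for 79 (6.52%) with each array centred on its median. Cy3 is part of the ratio that chose the members on these same arrays, so an excess over all probes follows from the choice. The Cy3 counts are therefore a description with no test. Cy5 differed by medians of -0.05 and 0.02 over the members, against -0.05 and -0.05 over all probes. For 15 members, the fall of Cy5 was larger than the rise of Cy3 in both exposures, and for 78 members the rise of Cy3 was the larger part in both. Taken from mean signal minus local background, with each array centred on its median, 10 members, all among these 15, kept the larger Cy5 fall in both exposures. The counts of larger Cy5 falls and Cy3 rises were made over the members only, so they cannot be set against all probes.

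Z00060187-1 had the largest Cy5 fall after prenatal exposure. Its log2 Cy3 signal was 14.23, 13.88 and 14.11 in adult controls, 14.20, 14.25 and 14.29 after prenatal and 13.99 to 14.14 after postweaning exposure, and these ranges overlap. Its log2 Cy5 signal was 10.42, 10.33 and 10.53 in controls, 9.62, 9.46 and 9.61 after prenatal and 9.60, 9.75 and 9.46 after postweaning exposure. All 6 exposed arrays were below all 3 controls in the reference channel. Z00049274-1 differed by -0.04 and -0.11 in Cy3 and by -0.58 and -0.66 in Cy5, after prenatal and postweaning exposure. Z00028299-1 differed by -0.33 and -0.07 in Cy3 and by -0.69 and -0.82 in Cy5. Z00025396-1, Z00034507-1, Z00024877-1, Z00023257-1 and Z00008299-1 were also among the 15. Where the Cy5 difference came from was not tested.

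**Figure D3:**
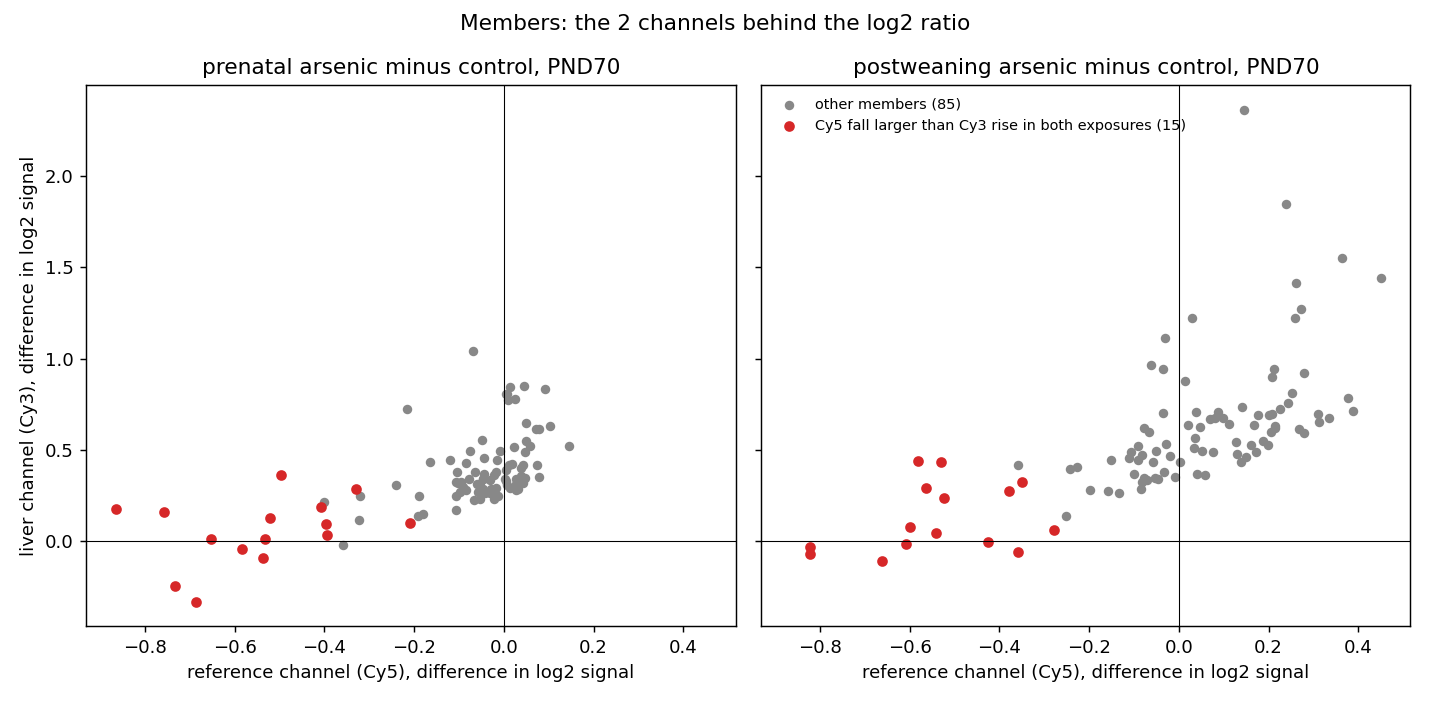
Each point is a member, with the difference in log2 processed signal between exposed and control adults in the reference channel (Cy5, x axis) and the liver channel (Cy3, y axis), for prenatal (left) and postweaning arsenic (right). The 15 red points, where the Cy5 fall exceeds the Cy3 rise in both exposures, lie toward the left of both panels, and Z00057225-1 is the highest point on the right, at 2.36 in Cy3.

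The exposures were compared with each other next. The choice used these same 6 exposed arrays, required both groups to lie on the same side of the controls and so favoured transcripts in which they are alike, and the values are therefore a description with no test. The postweaning mean was above the prenatal mean for 82 of 100 members, against 47.6% of all probes, with a median difference of 0.10 against -0.01 over all. All 3 postweaning arrays lay above all 3 prenatal arrays for 27 members (8.06% of all probes did so), and all below for 3 members (7.98%), Z00060187-1, Z00024757-1 and Z00045186-1. The third postweaning array was the highest of the 6 exposed arrays for 58 members and the first postweaning array for 22. The first prenatal array was the lowest for 41. In the normalized ratios described below, the median difference was 0.10, with 83 members above 0. It was 0.05 with 68 members above 0 without the third postweaning array, and 0.17 with 86 without the second.

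Z00057225-1 had the largest difference. Its ratios were 2.07, 2.39 and 2.69 in adult controls, 3.84, 2.98 and 3.15 after prenatal and 4.50, 4.05 and 5.25 after postweaning exposure, so that the 3 groups did not overlap. After background correction, quantile normalization and loess adjustment (the fitted ratio), the difference between the exposures was 1.21. It was 0.61 without background subtraction. The newborn values lay in the range of the postweaning group or close to it, with 5.30, 4.23 and 4.13 in controls and 5.29, 5.04 and 4.59 after prenatal exposure.

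Z00032452-1 read 1.70, 1.80 and 1.47 in adult controls, 2.04, 2.11 and 2.34 after prenatal and 3.04, 2.89 and 3.88 after postweaning exposure, again without overlap. The difference between the exposures in the fitted ratio was 0.93, and it was 0.53 without the third postweaning array and 0.36 without background subtraction. Z00011620-1, whose values are given above, had a smaller fitted difference of 0.32. Z00013450-1 had 0.28, or 0.17 without the first postweaning array. Z00012235-1 had 0.24, or 0.11 without background subtraction and 0.08 in the liver channel alone. In the direction of higher prenatal levels, Z00024757-1, Z00060187-1, Z00045186-1, Z00017884-1 and Z00005630-1 had fitted differences from -0.08 to -0.28.

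**Figure D4:**
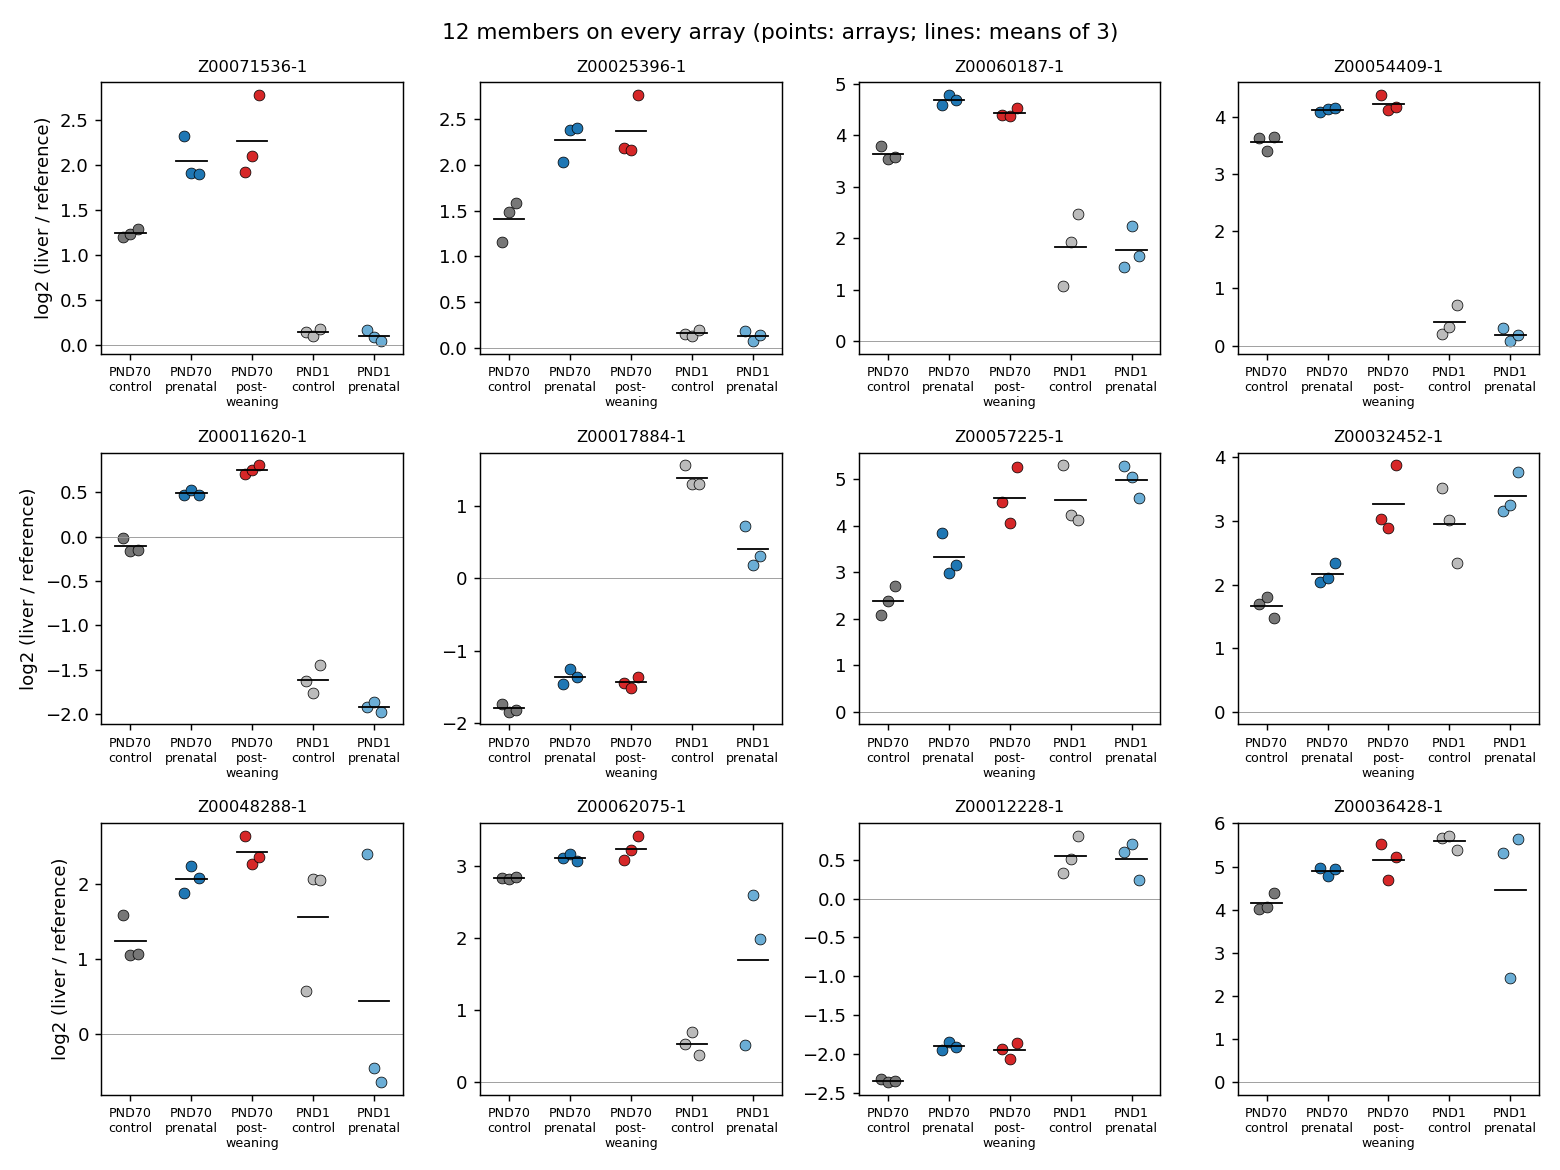
The y axis gives the log2 ratio of liver over reference RNA for 12 members, with each point 1 array and each line the mean of 3 arrays of a group (PND70 control, prenatal and postweaning; PND1 control and prenatal). For Z00057225-1 and Z00032452-1 the postweaning points lie above the prenatal ones, and for Z00048288-1 and Z00062075-1 the newborn points of a group spread over more than 1 unit.

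The newborn arrays took no part in the choice of members. They address whether transcripts with a higher ratio in exposed adults already had one at birth. The newborn differences lay on both sides of 0. The PND1 prenatal arsenic mean was above the control mean for 48 members and below it for 52, and the median difference was -0.01, against 0.00 over all probes. Newborn arsenic arrays all lay above the controls for 5 members (5.89% of all probes did so) and all below for 9 (5.48%).

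**Figure D5:**
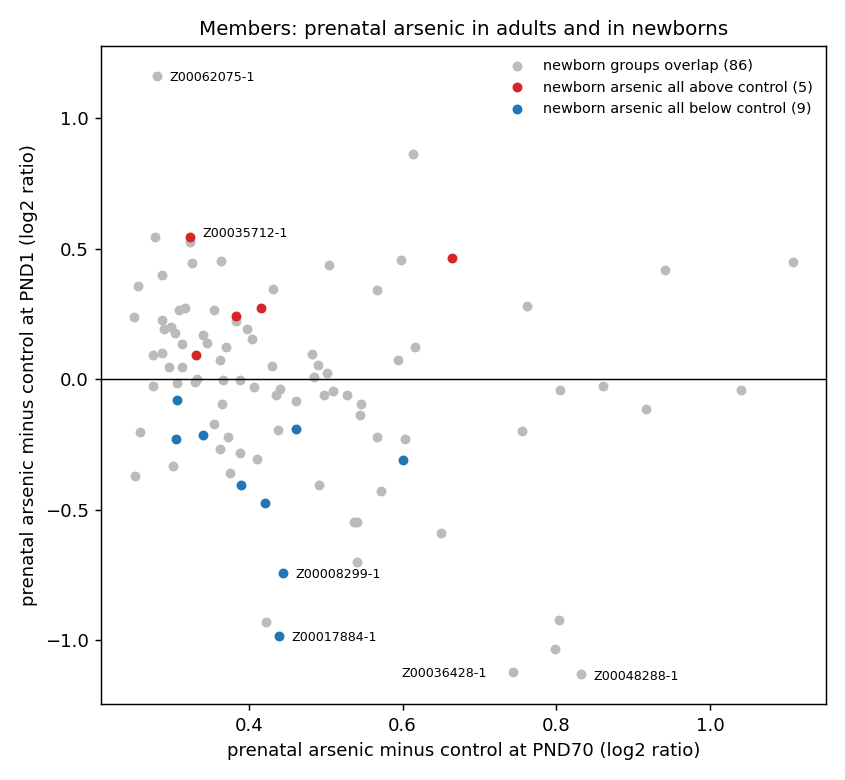
Each point is a member, with the difference between prenatal arsenic and control in adults (x axis) and in newborns (y axis) in log2 ratio, coloured by whether the 3 arsenic and 3 control newborn arrays overlap. The points lie on both sides of 0 on the newborn axis, with 5 red points above it and 9 blue points below it.

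The test of the newborn difference was limma on the fitted ratio, called at the methods' unadjusted p of 0.01. Its estimate of the spread pools all 15 arrays, and thus includes the 9 adult arrays that chose the members, where the choice favours a small spread. It called 4 members higher in exposed newborns (2.01% of all probes were called higher) and 4 lower (1.31%). In a fit of the 6 newborn arrays alone, 2 members were called, Z00017884-1 and Z00011620-1, against 0.947% of all probes, and neither passed an adjusted p of 0.05. In the pooled fit, Z00017884-1 alone passed a Benjamini-Hochberg adjusted p of 0.05, as did 0.0452% of all probes. Its ratios were 1.56, 1.30 and 1.30 in newborn controls and 0.73, 0.18 and 0.30 in exposed newborns. The exposed newborns were lower by 0.92 ± 0.13 in the fitted ratio (SE; limma adjusted p = 0.0335). The adjusted p ran from 0.0006 to 0.767 over 15 settings, with 0.767 in the fit of the newborn arrays alone, and was under 0.05 in 10 of them. In adults the same probe was far lower and stood the other way round, with -1.74, -1.85 and -1.81 in controls, -1.46, -1.26 and -1.37 after prenatal and -1.44, -1.52 and -1.36 after postweaning exposure.

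Z00011620-1 was also lower in exposed newborns, at -1.93, -1.86 and -1.98 against -1.63, -1.76 and -1.45 in controls, without overlap (limma adjusted p = 0.0804). Z00008299-1 read 0.25, 0.12 and 0.12 in exposed newborns and 1.59, 0.52 and 0.60 in controls. Z00042260-1 read 2.11, 2.30 and 2.19 in exposed newborns and 3.10, 2.58 and 2.35 in controls. The adjusted p of these 2 members were 0.264 and 0.273 by limma, and the first control array was the highest for both. Without that array the fitted differences, -0.61 and -0.39, became -0.35 and -0.23 and neither member was called. The next smallest p in this direction belonged to Z00049274-1 (adjusted p = 0.321 by limma), which missed the unadjusted threshold.

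In the other direction, Z00035712-1 read 0.38, 0.98 and 0.98 in exposed newborns and 0.12, 0.29 and 0.30 in controls. The first exposed array was close to the controls, and the fitted difference was 0.52 ± 0.13 (SE; limma adjusted p = 0.169). Z00062075-1 read 0.51, 2.60 and 1.99 in exposed newborns and 0.53, 0.70 and 0.38 in controls, so that the first exposed array lay within the controls. Its fitted difference of 1.03 became 0.58 without the second exposed array and 1.57 without the first. Z00000338-1 and Z00010467-1 were the other members called higher, by 0.41 and 0.42 in the fitted ratio (adjusted p = 0.273 and 0.284 by limma). With the processed ratio, Z00010467-1 was no longer called. Z00034724-1 followed, with 0.27 and an adjusted p of 0.312.

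Leaving out the first exposed newborn array changed this comparison most. Without it, limma called 32 members, 16 in each direction, while it called 7.87% of all probes. With each newborn array left out in turn, 3 of the 8 members (Z00017884-1, Z00011620-1 and Z00035712-1) were called every time, and the other 5 lost the call at least once. Z00035712-1 lost it in the liver channel alone and in the fit of the newborn arrays alone. Many members varied widely among newborns. Members were brighter than most probes, and the shares over all probes are not matched for brightness. The range over the 6 newborn arrays was at least 1 for 30 members, against 9.21% of all probes, or for 28 against 7.91% with outlier spots missing. For several of these members the high and low arrays came from both newborn groups, as the next values show.

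Z00048288-1 showed the widest shared pattern. It read 2.40, -0.46 and -0.65 in exposed newborns and 0.57, 2.06 and 2.04 in controls, so that the first exposed array and control replicates 2 and 3 were high and the other 3 newborn arrays were low. Z00060641-1 and Z00067946-1 followed it with r of 0.999 and 0.993 over 15 arrays. Z00058475-1, Z00046240-1 and Z00037261-1 had the same split of the newborn arrays, and the 6 probes ranged over 1.83 to 3.05 among newborns. Among newborns the pairs of these 6 correlated at r from 0.89 to 1.00 (n = 6 arrays, a description, and the probes share each array's RNA). Over all 15 arrays the lowest r among the 6 was -0.041, so that the 6 were not all alike outside the newborn arrays. In adults they were higher by 0.54 to 0.83 after prenatal and by 0.97 to 1.19 after postweaning exposure, and Z00048288-1 had the adult values 1.58, 1.05 and 1.06 in controls, 1.87, 2.23 and 2.08 after prenatal and 2.64, 2.26 and 2.35 after postweaning exposure. The 6 were named after their values had been seen. The same split of the newborn arrays, of any size, held for 18 members, against 8.39% of all probes, and its reverse for another 18, against 9.39%.

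Single newborn arrays stood apart for other members. Z00036428-1 read 5.32, 2.41 and 5.65 in exposed newborns and 5.65, 5.72 and 5.38 in controls, with the second exposed array alone low. Z00062780-1 read 0.85, 1.46 and 3.45 in exposed newborns and 1.00, 1.42 and 0.74 in controls, with the third exposed array alone high. The software marked that spot as an outlier, and it was missing in the fit. Z00024757-1 read 0.12, 0.11 and 2.96 in newborn controls, with the third alone high, and this spot too was marked as an outlier and missing in the fit. These 3 members were named for this pattern.

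The normal change with age was read in the control mice. Adult controls entered the choice of members, so these values are a description without a test. Large differences with age were more frequent among the members than over all probes, which were mostly dimmer and not matched for brightness. Adult controls were at least 1 above newborn controls for 12 members (4.63% of all probes) and at least 1 below for 27 members (7.18%), and the median difference was -0.26 against 0.00 over all. With outlier spots missing, 25 members (7.01% of all probes) were at least 1 below and the median was -0.23. The median was -0.13 in the fitted ratio and -0.0335 without background subtraction. All 3 adult controls lay above all 3 newborn controls for 34 members (28.9% of all probes) and below for 46 (26.3%).

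The members that were most above their newborn level were Z00054409-1 (3.14), Z00061395-1 (2.84), Z00062075-1 (2.30), Z00030744-1 (1.96) and Z00060187-1 (1.82). Z00054409-1 read 0.20, 0.33 and 0.71 in newborn controls and 3.63, 3.39 and 3.64 in adult controls. Z00061395-1 read -0.23, 0.42 and 0.18 in newborn controls and 2.96, 2.93 and 3.00 in adult controls, with 3.33, 3.54 and 3.21 after prenatal and 3.47, 3.26 and 3.70 after postweaning exposure. For these transcripts the exposed adults lay farther from the newborn level than the adult controls did.

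The members that were most below their newborn level were Z00017884-1 (-3.18), Z00012228-1 (-2.89), Z00058065-1 (-2.22), Z00057225-1 (-2.17) and Z00037261-1 (-1.70). Z00012228-1 read 0.33, 0.50 and 0.81 in newborn controls and -2.32, -2.37 and -2.34 in adult controls, with -1.94, -1.85 and -1.92 after prenatal and -1.94, -2.06 and -1.85 after postweaning exposure. Z00058065-1 read 0.09, 0.14 and 0.31 in newborn controls and -2.06, -2.04 and -2.01 in adult controls, and its exposed adults lay between -1.79 and -1.57. For these the exposed adults lay nearer the newborn level. Over all 100 members, the mean of the 6 exposed adults was nearer the newborn control mean than the adult controls were for 48, against 55.8% of all probes. For members chosen to be higher after exposure, this depends on whether the adult controls lay below or above the newborn level.

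The adult difference was also set against the change with age. The 12 members at least 1 higher in adult controls had median differences of 0.47 after prenatal and 0.60 after postweaning exposure, the 27 at least 1 lower had 0.42 and 0.53, and the other 61 had 0.40 and 0.51. Differences between these medians were not tested, and the choice by gap sets a floor for all of them.

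In the adult controls, 66 members were above the reference, against 49.7% of all probes. At least 4-fold above it stood 14 members, and 1078 of the 42006 probes. At -2 or lower stood 10 members, and 1383 of all probes. These 10 were Z00051485-1, Z00031126-1, Z00057540-1, Z00012228-1, Z00062745-1, Z00057285-1, Z00058955-1, Z00004763-1, Z00058065-1 and Z00060751-1. Of the 10, 9 were lower in adult than in newborn controls, and Z00031126-1 was higher by 0.41. Z00060751-1 illustrates how tight the smallest gaps were, with -2.63, -2.49 and -2.49 in adult controls, -2.28, -2.20 and -2.27 after prenatal and -2.22, -2.28 and -2.17 after postweaning exposure. Its newborn arrays lay between -0.97 and -0.73 in both groups.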

How the data were processed

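Liver RNA (Cy3) and reference RNA (Cy5) were hybridized on 15 arrays, and the authors deposited Feature Extraction A.7.5.1 output. The deposited intensity values are each spot's mean, background and processed signal on a linear scale. The processed signals were already background and dye corrected by the software and were not normalized between arrays. The deposited outlier, background and saturation flags are scored 0 or 1. The authors' own quantile, log2 and lowess steps are not part of these values.

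Members were ranked on log2 of processed Cy3 over Cy5, averaged per probe without the 1942 positive and 314 negative control spots. The members and lists were chosen with earlier results of these data known. The 20 largest gaps, ranks 99 to 102, the 5 smallest p in each direction for newborn arsenic and (as an order only, with no p given) for the exposures, and the 5 largest age differences in each direction are named. Where direction and size set a pattern, further probes were named after their values were seen, as the text says.

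A test between the exposures was planned and is not given, since the choice of members used those arrays. For the newborn test and the fitted ratios, normexp background correction (offset 50), quantile normalization per channel, log2 Cy3 over Cy5 and loess (span 0.3) were applied, outlier spots were set missing, and 1 mean per group was fitted to all arrays with limma 3.58.1 in R 4.3.3 (10 residual and 3.16 prior degrees of freedom). Fits were tested on simulated data. Figures and counts used Python with pandas and matplotlib.

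Replicate numbers come from the sample titles. Same-numbered PND70 control and prenatal arrays deviated together (r = 0.374, 0.157 and 0.158 across probes), other group pairs did not all do so (-0.337 to 0.503), and a replicate block was fitted as an alternative. Gene lists and cell type markers were planned and could not be read without gene names. Alternatives were other background and normalization settings, the liver channel alone, other fits and thresholds, and each array left out.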

Additional observations from a re-analysis of the deposited data

Results flagged for a closer look

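For 9 members the 3 prenatally exposed newborn arrays all lay below the 3 newborn controls, while by the choice of members the 3 prenatally exposed adult arrays lay above theirs. The newborn difference was -0.98 for Z00017884-1, -0.74 for Z00008299-1, -0.48 for Z00042260-1, -0.40 for Z00026500-1 and -0.31 for Z00011620-1. It was -0.23 for Z00022666-1, -0.21 for Z00004738-1, -0.19 for Z00014112-1 and -0.0811 for Z00034774-1, in log2 ratio. The share of all probes with newborn arsenic arrays below the controls was 5.48%. The opposite order held for 5 members, against 5.89% of all probes. The counts lie near these shares, so no age reversal particular to the members is read from them. The difference between the ages was not tested, because the adult values chose the members.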

How the results depend on the processing

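The set of members depended on the arrays and the scale. The same rule kept 47 of 100 on normexp, quantile and loess ratios, 23 in the liver channel alone, and 24 to 94 when 1 adult array was left out (24 without PND70 control replicate 1, 45 without prenatal replicate 1, 54 without postweaning replicate 2, 60 and 61 without control replicates 2 and 3). A list of 50 holds 50 of them. The median adult difference in the fitted ratio was 0.39 after prenatal and 0.51 after postweaning exposure. It was 0.28 and 0.35 without background subtraction and 0.29 and 0.43 in the liver channel alone. With 1 array left out it ran from 0.37 to 0.43 and from 0.46 to 0.57.

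Between the exposures, the median fitted difference of 0.10 ran from 0.0511 to 0.1736 with 1 array left out. In newborns, 8 members were called (3.31% of all probes). Calls were 2 in a fit of the 2 groups (0.947% of all), 4 with unmoderated variances (2.86%), 1 at an adjusted p of 0.05 (0.0452%) and 5 to 32 with 1 array left out (32 without prenatal arsenic replicate 1, where 7.87% of all were called, and 5 without replicate 2, where 2.26% were). The filter on spots well above background removed no probe. Outlier spots lay on 3 members, all on newborn arrays, and setting them missing in the processed ratio, chosen after seeing the data, left each newborn and age count within 2 of its value. Without background subtraction the newborn difference of Z00008299-1 was -0.18, that of Z00042260-1 was -0.22 and that of Z00011620-1 was -0.22, and of these 3 only Z00011620-1 was still called. In the liver channel alone, Z00008299-1, Z00010467-1, Z00035712-1 and Z00042260-1 were no longer called. The median age difference of -0.13 in the fitted ratio was -0.23 with the processed ratio and outlier spots missing, -0.0335 without background subtraction, -0.19 with array weights and -0.20 to -0.11 with 1 array left out. With the replicate block, 8 members were called in newborns (3.42% of all), 7 of them also called without it. Z00010467-1 was lost and Z00010373-1 gained, and the adjusted p of Z00017884-1 became 0.0625. Adjusted thresholds give no value for the comparisons that are described without a test. The causes of these changes were not tested. With 3 arrays per group, precision is limited by their number.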
